A study of Mus musculus with 2 samples.

Results

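The 45 genes described here encode proteins that sense DNA damage and repair it. They were chosen as a list of symbols spanning 7 pathway groups, and all 45 were found by Ensembl identifier among the 43629 genes of the count tables. The cells were E14, a mouse embryonic stem cell line of the 129/Ola strain background, wild type and with no treatment named in the labels. Polyadenylated RNA was sequenced in 2 libraries, 1 with the age label P33 and 1 with P42, a form of label that in cultured cells usually states the passage.

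Cells answer broken or damaged DNA along several routes. Apical kinases detect the lesion and switch on checkpoint kinases, which hold the cell cycle. Double-strand breaks are then either cut back to single strands and copied from the sister chromatid (homologous recombination) or rejoined directly (non-homologous end joining), crosslinks between the strands are unhooked by the Fanconi anaemia proteins, and altered or mispaired bases are removed by base excision and mismatch repair. Embryonic stem cells divide fast, spend much of the cycle in S phase and are known for a strong reliance on recombination.

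Totals were 40139219 counts for P33 and 39657578 for P42. With a single library for each label, no difference between them could be checked on replicates, and none carries a p-value. Pluripotency markers were abundant, with all 8 of 8 detected and a summed level of 5370 CPM, counts scaled by the library size, in P33 and 6308 CPM in P42. The fibroblast or feeder markers summed to 42.2 and 33.3 CPM, mostly from Thy1, with Postn at 0 counts in both libraries. The 6 primitive endoderm markers summed to 32.7 and 107 CPM and were all at least 2-fold higher in P42. Trophectoderm markers summed to 21.1 and 11.7 CPM, with Krt7 and Krt8 lower in P42 and Eomes higher, at 3.27 and 6.49 CPM. The part of such cells in the results was not tested. In RNA from a whole culture, fewer cells of a type and less RNA per cell cannot be told apart.

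All 45 repair genes were expressed at 1 CPM or more in both libraries, a level reached by 54.2% of all protein-coding genes. Scaled by the length of the merged exons (FPKM), so that genes can be compared, their levels ran from 1.42 ± 0.171 FPKM for Fancc to 256 ± 21.6 FPKM for Msh6 (SD, n = 2), with a median of 7.82 FPKM. The genes of the highest level worked outside the checkpoint pathways. Msh6, which recognises mismatches, lay above 99.3% of detected coding genes, Parp1, the sensor of single-strand breaks, above 98.7% and Xrcc5, the larger subunit of the Ku ring that holds broken ends, above 97.7%. Merged exons include every annotated variant and so understate the level of genes with long rare exons, and with the longest transcript as the length the median was 14.6 FPKM.

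**Figure D1:**
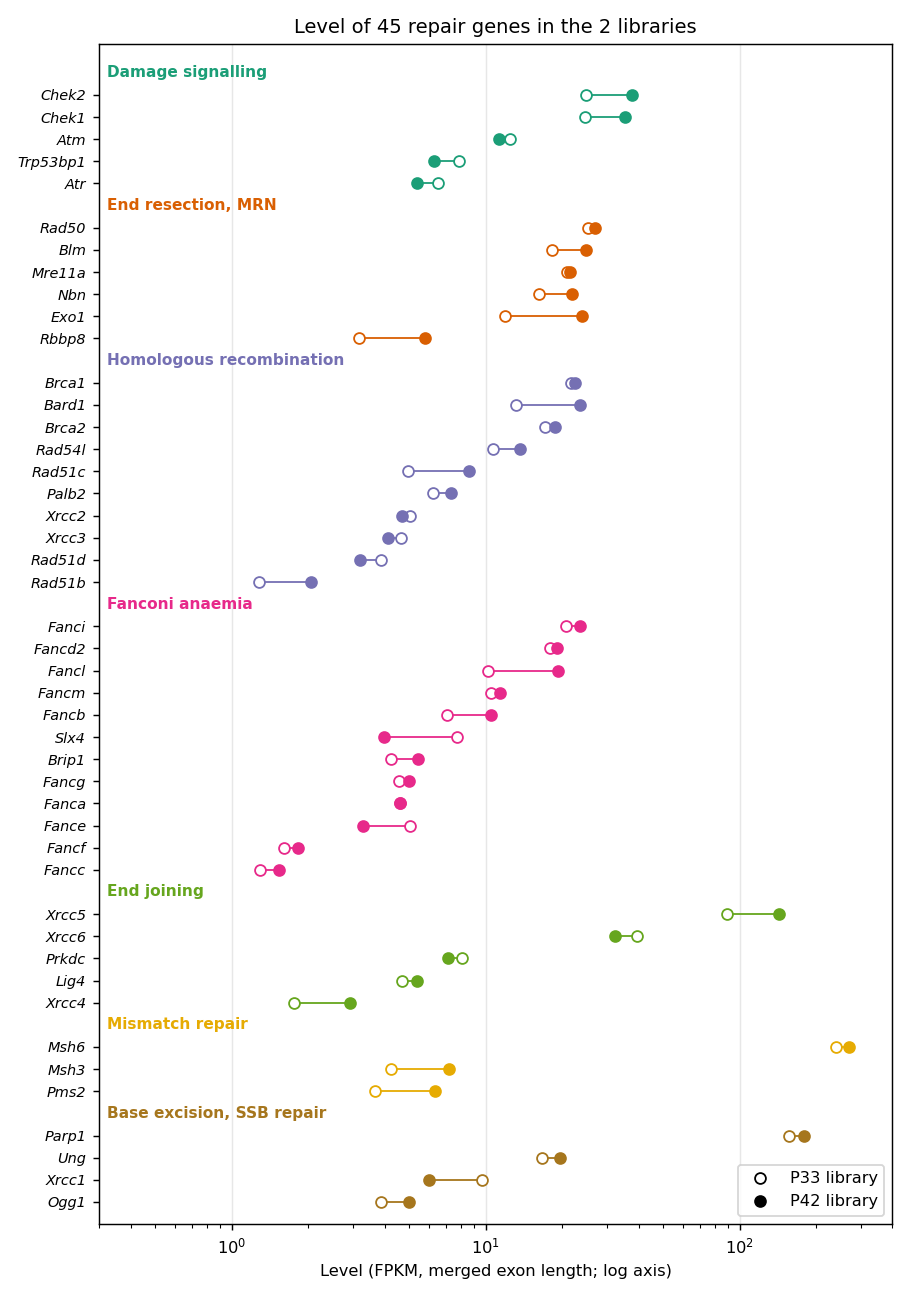
Level of each repair gene in FPKM on a log axis, by pathway, with the P33 library as an open circle and the P42 library as a filled circle. Msh6, Parp1 and Xrcc5 stand apart to the right, and most genes lie between 1 and 40 FPKM with their libraries close together.

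Between the libraries the repair genes differed little. Their log2 ratios of P42 over P33 had a median of 0.19, against 0.04 over all 13737 genes that averaged 1 CPM or more. It lay above 0 for 34 of the 45, against 52.7% of all genes. With library totals in place of TMM scaling, every ratio was lower by 0.14 and 26 of the 45 lay above 0, against 42.7% of all genes. A difference of at least 2-fold with a counting interval that excluded equality was found for 1 repair gene higher in P42 (background 5.07%) and 0 lower (background 9.54%), where 14.6% of all genes passed in either direction. At 1.5-fold, 11 were higher (background 16.1%) and 3 lower (background 18.9%), the latter being Slx4, Xrcc1 and Fance. The median size of the log2 ratio, sign ignored, was 0.29, against 0.41 for all genes. Among coding genes in the central range of the repair genes' levels, from 11.9 to 189 CPM, it was 0.36, and 8.34% of those genes passed the 2-fold rule.

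**Figure D2:**
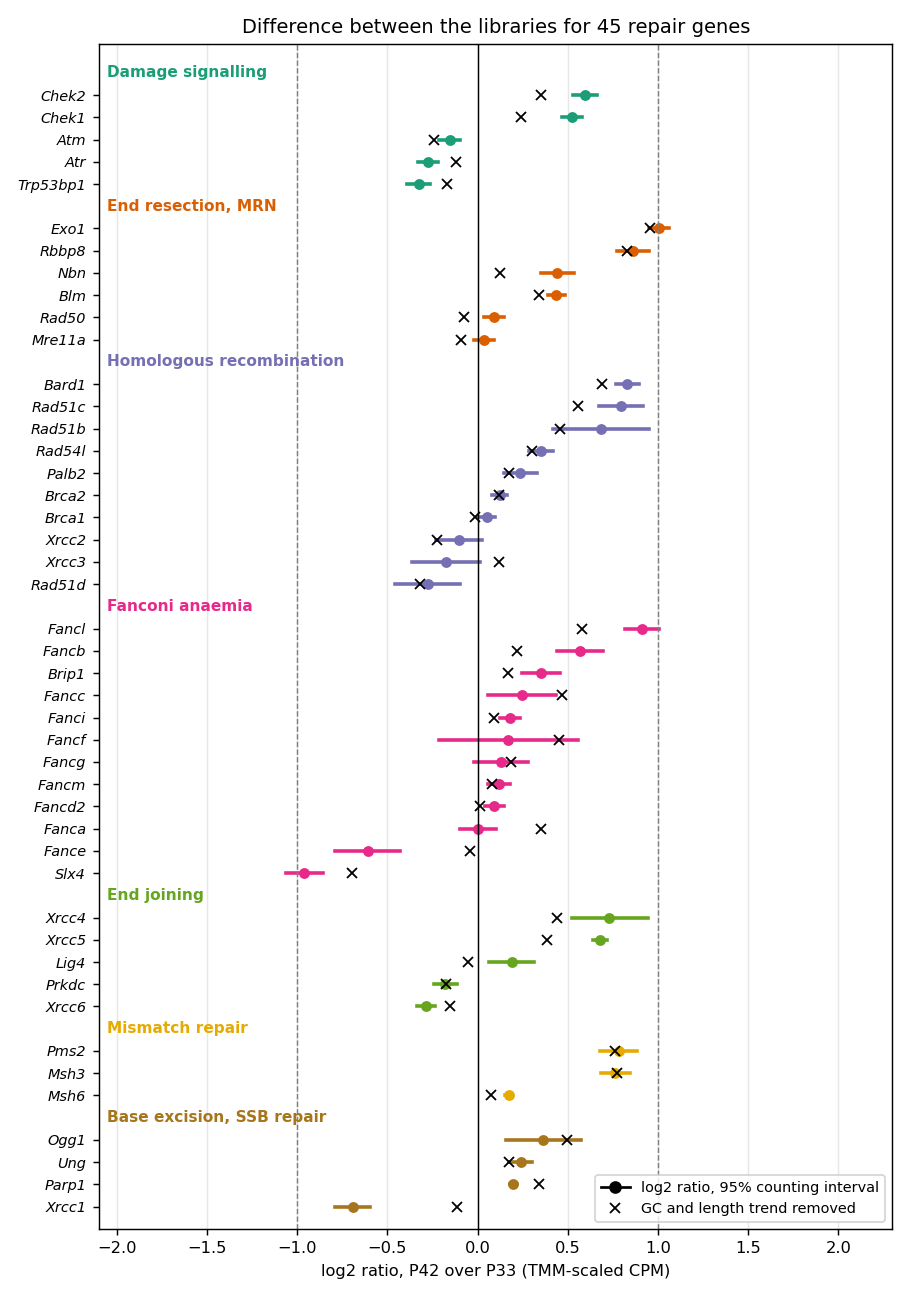
The log2 ratio of P42 over P33 for each repair gene by pathway, with its 95% counting interval as a bar and the ratio after removal of the GC and length trend as a cross. Dashed lines mark 2-fold, which Exo1 alone passed, while Slx4 at −0.96 stood closest to it on the other side.

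Many repair genes are known to be transcribed as cells enter S phase through E2F factors, whose binding letters can be looked for in their promoters. RefSeq promoters of the GRCm38.p6 build, from 250 bases before to 50 bases after the start, were found for 37 of the 45 genes. The letters TTTCCCGC, TTTGGCGC, TTTGCCGC or TTTCGCGC on either strand were present in 8 of the 37 (21.6%), in 3.32% of all coding genes with a promoter and in 4.95% of those that averaged 1 CPM or more. Among 19 S phase genes, 7 of 15 with a promoter (46.7%) held them, and among 82 further repair genes 6 of 66 (9.09%). Sites of the members with these letters are given here, save that of Msh3, because they are a sequence feature that several members share. They are read along the gene's strand, with the matching letters in capitals. The stretches of Bard1, Brca2 and Chek2 lie wholly outside annotated exons, and the others are limited to the site and the bases next to it.
Bard1 (chr1:71103154-71103201, minus strand): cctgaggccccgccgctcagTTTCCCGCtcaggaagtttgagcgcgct
Brca2 (chr5:150522413-150522500, plus strand): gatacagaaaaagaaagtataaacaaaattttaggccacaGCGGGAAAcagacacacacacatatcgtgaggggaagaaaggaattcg
Chek2 (chr5:110839791-110839878, plus strand): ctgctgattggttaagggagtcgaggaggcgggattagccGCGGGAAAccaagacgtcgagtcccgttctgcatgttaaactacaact
Msh6 (chr17:87975055-87975082, plus strand): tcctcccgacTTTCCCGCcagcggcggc
Xrcc6 (chr15:82016313-82016340, plus strand): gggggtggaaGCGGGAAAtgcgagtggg
Fancg (chr4:43010336-43010363, minus strand): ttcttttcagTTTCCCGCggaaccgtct
Rad51c (chr11:87404942-87404969, minus strand): ccccgcgaggGCGGGAAAagcaaggggt

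Rad51c has a further match at its other annotated start. The 8 genes with these letters had a median log2 ratio of 0.38 and the 29 without them 0.20, while over all genes the medians were 0.11 with the letters and 0.03 without. The order was the other way round in the S phase list, with 0.11 for genes with the letters and 0.43 for those without. CCAAT, the box bound by NF-Y, was found in 23 of the 37 promoters (62.2%, against 42.1% of coding genes). The cell cycle element TTTGAA was found in 2 (5.41%, against 17.6%), the ETS letters CCGGAAGT in 3 (8.11%, against 5.94%) and the NRF1 palindrome in 1, Lig4 (2.70%, against 1.53%). These matches describe letters in a window and do not show that a factor bound there.

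Damage signalling held kinases that went both ways. Atm, the kinase that answers double-strand breaks, measured 129 CPM in P33 against 116 CPM in P42, for a log2 ratio of −0.15 (−0.21 to −0.10, 95% counting interval). Atr, which answers stalled forks and single-stranded DNA, stood at 153 and 127 CPM, a ratio of −0.28 (−0.33 to −0.22). Trp53bp1, whose product shields broken ends from being cut back, stood at 111 and 88.5 CPM, a ratio of −0.33 (−0.39 to −0.26). The checkpoint kinases downstream were the other way round. Chek1, the target of Atr, stood at 114 CPM in P33 against 164 CPM in P42, a ratio of 0.52 (0.47 to 0.58). Chek2, the target of Atm, stood at 74.7 and 113 CPM, a ratio of 0.59 (0.53 to 0.66). The sensors and mediator were thus lower and both effector kinases higher in P42, each by less than 2-fold.

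Per length, the effector kinases were the more abundant, at 24.6 FPKM in P33 and 35.35 FPKM in P42 for Chek1 and 24.9 and 37.5 FPKM for Chek2, and their means differed by less than the spread between the libraries. Atm followed at 11.9 ± 0.896 FPKM, Trp53bp1 at 7.04 ± 1.12 FPKM and Atr at 5.92 ± 0.796 FPKM (SD, n = 2). The order of Atr and Atm depended on the length used. Atr lay at 0.52 times the FPKM of Atm in P33 with merged exons, which span 23629 bases for Atr, and at 1.43 times with the longest transcript of 8102 bases.

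In the resection group, which cuts broken ends back to single strands, all 6 members lay above 0 (background 52.7%), with a median of 0.44. With library totals 4 of 6 lay above 0 (background 42.7%), with a median of 0.30. After removal of the GC and length trend 4 of 6 did (background 53.4%), with a median of 0.23. Exo1, a nuclease of long-range resection on chromosome 1 (chr1:175880581-175913489, mm10), was the single gene to pass the 2-fold rule. It had 4221 counts in P33 and 7601 in P42, or 100 and 201 CPM, and a ratio of 1.01 (0.95 to 1.06) that lies at the threshold. Rbbp8, whose product CtIP starts resection together with the nuclease Mre11, was next at 39.8 and 72.2 CPM, a ratio of 0.86 (0.77 to 0.95). Blm, a helicase of resection and of joint molecules, stood at 161 and 218 CPM, a ratio of 0.44 (0.39 to 0.48).

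The 3 subunits of the MRN complex, which binds and tethers broken ends, were within 2-fold of each other in level. Rad50, the tether, stood at 25.4 FPKM in P33 and 27.0 FPKM in P42, the nuclease gene Mre11a at 20.98 and 21.5 FPKM, and Nbn, the subunit that recruits Atm, at 16.2 and 22.0 FPKM. The ratios were 0.09 (0.04 to 0.14) for Rad50 and 0.04 (−0.02 to 0.09) for Mre11a, both of which turned negative with library totals and after removal of the GC and length trend. Nbn had a ratio of 0.44 (0.35 to 0.54), or 0.12 with that trend removed. Without its removal, the excess of Rad50 over Nbn per length went from 1.57-fold in P33 to 1.23-fold in P42.

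In homologous recombination Brca1 and Brca2 had ratios near 0, and of their partners Bard1 lay further from 0 than Palb2. Brca1, a ubiquitin ligase that promotes resection and recombination, stood at 185 CPM in P33 against 192 CPM in P42, a ratio of 0.05 (0.00 to 0.10). Bard1 encodes its obligate partner and stood at 74.7 and 133 CPM, a ratio of 0.83 (0.77 to 0.89). Per length Brca1 therefore exceeded Bard1 1.64-fold in P33 and stood at 0.96 times its level in P42, or 2.13 and 1.24 times with the longest transcripts. Bard1 lies on chromosome 1. With the chromosome median subtracted and, here and below, the median of all genes (0.04) added back, its ratio was 0.21, against 0.01 for Brca1. Brca2, which loads the recombinase onto single-stranded DNA, stood at 234 and 255 CPM, which gave a ratio of 0.12 (0.08 to 0.16). It turned to −0.02 with library totals, as that of Brca1 turned to −0.09, or to −0.01 once the GC and length trend was taken out. Palb2, the bridge between Brca1 and Brca2, stood at 45.5 and 53.5 CPM, a ratio of 0.24 (0.14 to 0.33), or 0.09 with library totals.

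The recombinase paralogues, small proteins that stabilise the filament, had the lowest levels of this group with the longest transcript as the length, and split by direction. Rad51c stood at 21.7 CPM in P33 against 37.6 CPM in P42, a ratio of 0.79 (0.67 to 0.92). Rad51b, at 203 and 292 counts the lowest of the group, had 4.82 and 7.73 CPM and a ratio of 0.68 (0.42 to 0.95). Rad51d, Xrcc2 and Xrcc3 lay on the other side of 0, with ratios of −0.28 (−0.46 to −0.10), −0.10 (−0.23 to 0.02) and −0.17 (−0.36 to 0.01). The counting intervals of Xrcc2 and Xrcc3 included equality, and the ratio of Xrcc3 became 0.12 once the GC and length trend was removed. Their products form 2 known subcomplexes, in which Rad51c joins either Xrcc3 alone or Rad51b, Rad51d and Xrcc2, and neither subcomplex had all its genes on the same side of 0. Rad54l, the motor protein that remodels the filament, stood at 82.5 and 105 CPM, a ratio of 0.35 (0.29 to 0.42).

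The Fanconi anaemia group held the repair gene of lowest mean level, Fancc by merged exons or Fancf by the longest transcript, and Slx4, the gene of lowest ratio. In this pathway a core complex attaches ubiquitin to the clamp of Fancd2 and Fanci, which then recruits nucleases to a crosslink. The clamp genes had the highest mean levels of the group, at 17.95 and 19.1 FPKM for Fancd2 and 20.7 and 23.5 FPKM for Fanci. In P42 Fancl, at 19.3 FPKM, lay just above Fancd2. The ratios of the clamp genes were 0.09 (0.04 to 0.14) for Fancd2 and 0.18 (0.12 to 0.24) for Fanci, and that of Fancd2 became −0.05 with library totals.

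Among core complex genes the ubiquitin ligase subunit had the highest ratio. Fancl, the catalytic subunit, had 1456 counts in P33 and 2453 in P42, or 34.5 and 65.0 CPM, a ratio of 0.91 (0.82 to 1.01). Fancb, an X-linked partner of Fancl, stood at 21.1 and 31.2 CPM, a ratio of 0.57 (0.44 to 0.69). Fancm, the translocase that brings the complex to DNA, stood at 109 and 119 CPM, a ratio of 0.12 (0.06 to 0.18). Fanca was equal in the libraries at 40.2 CPM in both, a ratio of 0.00 (−0.10 to 0.10). Fancg had 17.4 and 19.0 CPM and Fancc 10.8 and 12.8 CPM, and Fancf, with 115 and 116 counts, was the least covered of the 45 genes, with a ratio of 0.17 (−0.21 to 0.56). Fance, which links the core to Fancd2, was the core gene that was lower in P42, at 16.0 and 10.5 CPM, a ratio of −0.61 (−0.79 to −0.43). With library totals the ratios of Fanca, Fancg and Fancm also lay below 0. With the GC and length trend removed, Fancl was at 0.58, Fancc at 0.47, Fancf at 0.45 and Fanca at 0.35. Fancb was then at 0.22, Fancg at 0.18, Fancm at 0.08 and Fance at −0.04.

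Downstream of the clamp, Slx4 and Brip1 went in opposite directions. Slx4, the scaffold that holds the structure-specific nucleases, had 2495 counts in P33 and 1148 in P42, or 59.2 and 30.4 CPM. Its ratio of −0.96 (−1.06 to −0.86) fell short of 2-fold by a margin smaller than its interval, and passed 2-fold with library totals and with the median of its chromosome subtracted. Brip1, a helicase bound by Brca1, stood at 31.5 and 40.2 CPM, a ratio of 0.35 (0.24 to 0.46).

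In non-homologous end joining the subunits of Ku lay on opposite sides of 0, but not relative to the medians of their chromosomes. Xrcc5, which encodes Ku80, had 9610 counts in P33 and 13763 in P42, or 228 and 364 CPM, a ratio of 0.68 (0.64 to 0.71). Xrcc6, which encodes Ku70, had 7446 and 5473 counts, or 177 and 145 CPM, a ratio of −0.29 (−0.34 to −0.23). With the chromosome medians subtracted in the same way as for Bard1, both lay above 0, Xrcc5 at 0.06 and Xrcc6 at 0.32. The proteins act as a pair of equal parts, whereas per length the Xrcc5 message exceeded that of Xrcc6 2.26-fold in P33 and 4.41-fold in P42, or 1.66-fold and 3.24-fold with the longest transcripts. Prkdc, the large kinase recruited by Ku, stood at 106 and 93.9 CPM, a ratio of −0.18 (−0.24 to −0.12). The ligation genes were low. Lig4 stood at 24.4 and 27.9 CPM, a ratio of 0.19 (0.06 to 0.31), or −0.05 after removal of the GC and length trend, and its stabilising partner Xrcc4 at 7.40 and 12.3 CPM, a ratio of 0.73 (0.52 to 0.94). Lig4 exceeded Xrcc4 per length by 2.67-fold in P33 and 1.84-fold in P42.

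Mismatch repair held the repair gene of highest level. This was Msh6, the subunit that reads single mispairs, which was near level in the libraries at 1044 and 1177 CPM, a ratio of 0.17 (0.15 to 0.19). Msh3, which takes its place to read larger loops, stood at 47.7 and 80.95 CPM, a ratio of 0.76 (0.68 to 0.85). Msh6 exceeded Msh3 per length 56.7-fold in P33 and 37.7-fold in P42, or 21.9-fold and 14.6-fold with the longest transcripts. Pms2, the nuclease that nicks the new strand, stood at 29.8 and 51.3 CPM, a ratio of 0.78 (0.68 to 0.89). All 3 ratios were above 0 with TMM (background 52.7%) and with library totals (background 42.7%), for a group median of 0.76 and 0.62.

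In base excision and single-strand break repair, the sensor and its scaffold lay on opposite sides of 0, but not relative to the medians of their chromosomes. Parp1 was the second most abundant repair gene, at 826 CPM in P33 against 948 CPM in P42, a ratio of 0.20 (0.18 to 0.22). Xrcc1, the scaffold that Parp1 activity recruits, had 2374 and 1316 counts, or 56.3 and 34.8 CPM, a ratio of −0.69 (−0.79 to −0.59). With the chromosome medians subtracted in the same way as for Bard1, both lay below 0, Parp1 at −0.42 and Xrcc1 at −0.57. After removal of the GC and length trend Xrcc1 was at −0.12. The glycosylase genes differed in level, with Ung, which removes uracil, at 91.3 and 108 CPM and Ogg1, which removes oxidised guanine, at 8.49 and 10.9 CPM. Their ratios were 0.24 (0.17 to 0.30) for Ung and 0.36 (0.16 to 0.57) for Ogg1.

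Further repair genes, of the same pathways and of nucleotide excision and direct reversal, were examined as a list of 82, all of them detected in both libraries. Their median log2 ratio was 0.00, with 41 above 0. By the 2-fold rule 2 were higher in P42 (background 5.07%) and 4 lower (background 9.54%). The higher genes were Ube2t, the E2 enzyme of the Fanconi core ligase, at 41.6 CPM in P33 against 101 CPM in P42, a ratio of 1.29 (1.21 to 1.37), and the mismatch repair gene Pms1 at 42.8 and 89.2 CPM, a ratio of 1.06 (0.97 to 1.14). The lower genes were H2afx, whose histone is phosphorylated around breaks, at 176 and 81.9 CPM, Faap100 of the Fanconi core at 9.42 and 3.23 CPM, the gap-filling polymerase gene Poll at 17.4 and 8.18 CPM, and Mgmt, which reverses alkylated guanine, at 8.59 and 2.97 CPM. With the GC and length trend removed, H2afx at −0.54, Faap100 at −0.91, Poll at −0.74 and Pms1 at 0.87 no longer reached 2-fold, while Ube2t at 1.05 and Mgmt at −1.45 did. Pms1 also missed it with library totals, at 0.92.

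The groups of this list are read against the 52.7% of all genes above 0. Resection and recombination genes had a median of 0.20, with 14 of 19 above 0, signalling genes 0.14 with 7 of 12, and base excision genes 0.10 with 11 of 18. Fanconi genes had a median of −0.0024 with 3 of 9 above 0, nucleotide excision genes −0.12 with 3 of 12, end joining genes −0.21 with 2 of 7 and direct reversal genes −0.71 with 0 of 3. Of the 2 mismatch repair genes 1 lay above 0. Cell cycle genes differed as well, with a median of 0.38 and 15 of 19 above 0 for S phase and of 0.03 and 7 of 11 above 0 for G2/M. The part of cell cycle stage in the ratios of the repair genes was not tested.

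The ratios varied with the GC content of the transcript. Over all genes Spearman's rho between the log2 ratio and the GC content was −0.39 (n = 13668 genes), and over the 45 repair genes it was −0.42 (n = 45), a description across genes that share the same 2 libraries. The 15 repair genes of lowest GC content, from 40.8% to 44.9%, had a median ratio of 0.44, the middle 15 had 0.35 and the 15 of highest GC content, from 48.0% to 61.4%, had 0.00. Repair genes were somewhat poorer in GC than other genes, with a median of 46.2% against 49.7%. After removal of the trend of the ratio on GC content and exon length, their median was 0.17, and 31 of the 45 lay above 0 (background 53.4%). Xrcc1, with 59.3% GC, went from −0.69 to −0.12 in this way and Fance, with 61.4% GC, from −0.61 to −0.04, while Slx4 went from −0.96 to −0.69 and Exo1 from 1.01 to 0.96. Chek1 and Chek2 stayed above 0 at 0.24 and 0.35, and Atm, Atr and Trp53bp1 stayed below 0 at −0.24, −0.12 and −0.17.

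**Figure D3:**
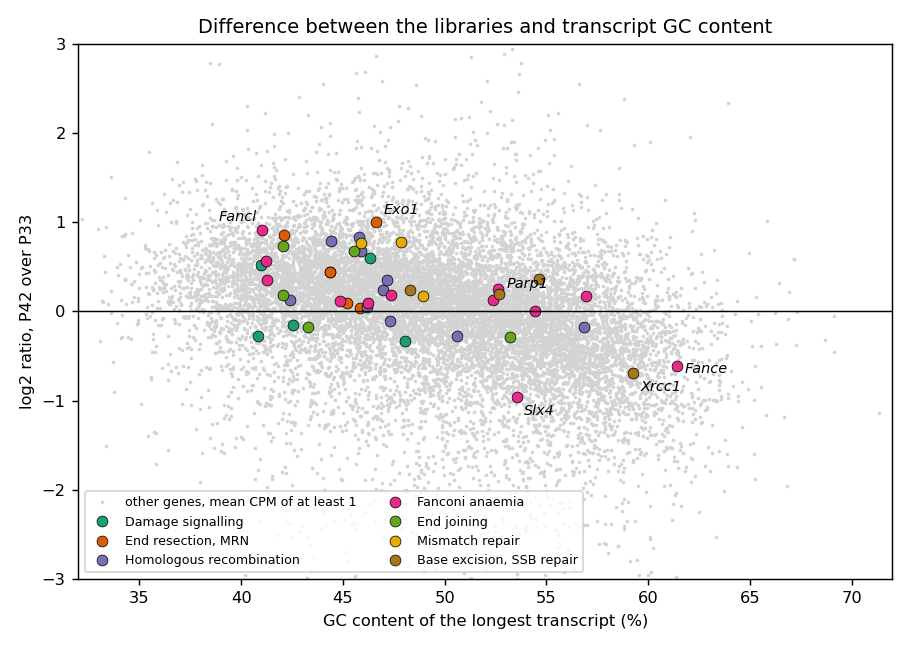
The log2 ratio of P42 over P33 against the GC content of the longest transcript in percent, with repair genes coloured by pathway over all other genes in grey (108 genes lie outside the axes). Both sets slope downward, and Xrcc1 and Fance lie at the GC-rich end below 0.

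The ratios also varied by chromosome. The median of all genes that averaged 5 CPM or more was 0.66 on chromosome 1, where 85.1% of 638 genes lay above 0, and −0.57 on chromosome 15, where 15.7% of 428 did. Chromosome 1 carries 4 repair genes, Exo1, Bard1, Xrcc5 and Parp1, and also Ube2t and Pms1, so that all 3 repair genes counted as higher lie there. The chromosome's median was subtracted and the median of all genes, 0.04, added back. The ratios then became 0.39 for Exo1, 0.21 for Bard1, 0.06 for Xrcc5 and −0.42 for Parp1, and 0.66 for Ube2t and 0.44 for Pms1. Xrcc6 lies on chromosome 15 and went from −0.29 to 0.32. The Ku genes thus differed by 0.96 on the log2 scale with Xrcc5 higher before this step, and their order was reversed after it. The cause of the chromosome medians was not tested. Without the genes of chromosome 1, 30 of 41 repair genes lay above 0, with a median of 0.17. With library totals 22 of these 41 did, with a median of 0.03. The share of all genes above 0 without that chromosome was not worked out.

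**Figure D4:**
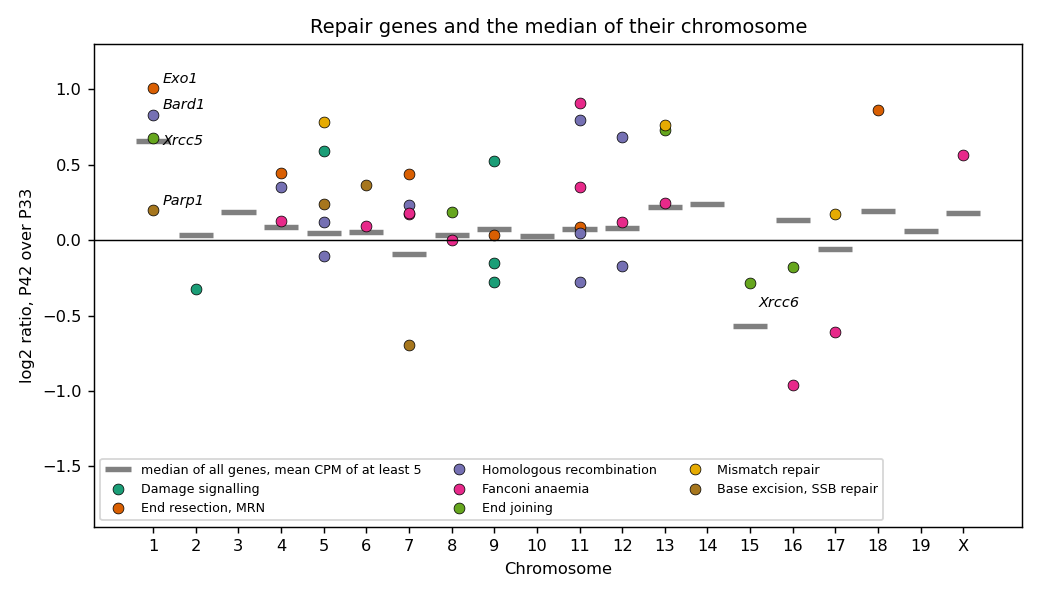
The log2 ratio of P42 over P33 for each repair gene at its chromosome, with the median of all genes of that chromosome as a grey bar. The bar lies at 0.66 for chromosome 1 and −0.57 for chromosome 15, with Xrcc5 next to the first bar and Xrcc6 above the second.

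Many repair genes start next to a gene on the other strand, within 1000 bases, and may share a promoter region with it. Such a coding neighbour averaging 1 CPM or more is described for 16 of the 45 genes. The pair had the same sign of the log2 ratio in 9 of 16 cases (56.25%), against 62.2% of 863 such pairs in the genome, so the share was near the background. The median difference within a pair was 0.34, against 0.39 over all pairs. Chek2 and Hscb had ratios of 0.59 and 0.60, Fancb and Mospd2 0.57 and 0.65, Brca1 and Nbr1 0.05 and 0.10, and Palb2 and Dctn5 0.24 and 0.28. Other pairs parted. Atm had −0.15 beside 0.34 for Npat, a regulator of histone genes, Prkdc −0.18 beside 0.27 for the replication helicase gene Mcm4, Pms2 0.78 beside −0.02 for Aimp2, and Rad51b 0.68 beside −0.67 for Zfyve26.

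**Figure D5:**
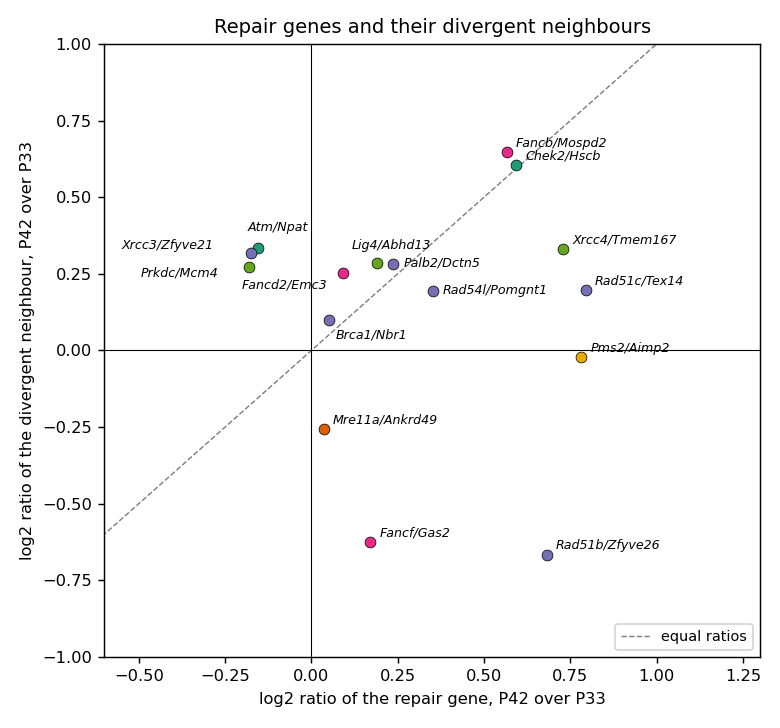
The log2 ratio of the neighbour against that of the repair gene for 16 pairs that start within 1000 bases on opposite strands, coloured by pathway, with equal ratios on the dashed line. Chek2, Fancb, Brca1 and Palb2 lie near the line with their neighbours, and Rad51b and Zfyve26 lie farthest from it.

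Some repair genes overlap exons of a gene on the opposite strand, where reads can be told apart only if strand was used in counting, which is not stated in the sources used here. The overlap was largest for Fancc, at 16.4% of its exon length with Gm16133, a gene with 0 counts in both libraries. It took 16.0% of the exon length of Fanci (with Polg), 15.4% of Rad54l (Lrrc41), 15.04% of Trp53bp1 (Tubgcp4) and 14.96% of Fancf (Gas2). For Fancl (Vrk2) it was 13.7%, for Ogg1 (Camk1) 10.6%, for Fanca (Zfp276) 10.5% and for Xrcc6 (Desi1) 7.69%. The levels of these genes are less certain for that reason.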

How the data were processed

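Each library came as a table of read counts per gene, whole numbers deposited without normalization. STAR 2.4.2a, featureCounts 1.4.5-p1 and the mm10 assembly are named in the submitters' processing notes, while the annotation release and strand setting are not given there. Genes were named and measured with GENCODE M21 on GRCm38, which is the same assembly as mm10. The 45 members and the lists were chosen with earlier results of these data known, and all members are named. For Msh3, a neighbouring gene and the promoter stretch are not reported here.

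Counts were scaled by TMM in edgeR 4.0.16 (R 4.3.3), at which 1 CPM stood for 42.2 counts in P33 and 37.8 in P42. FPKM is CPM divided by merged exon length in kilobases. The log2 ratio used a prior count of 0.5, and its exact Clopper-Pearson interval at 95% covers counting error only. The labels do not tie the libraries to separate cultures, and the spread between them may be technical. A gene was tested at a mean of 1 CPM or more. Alternatives were DESeq2 1.42.0 size factors, library totals, other minimums and folds, a lowess trend on GC content and length (span 0.3, statsmodels 0.14.6) and chromosome medians. Where chromosome medians were subtracted, the median of all genes (0.04) was added back. The calls were tried on data simulated with counting error only, which cannot show how they fare with variation between cultures. Python 3.11.15 was used with pandas 2.3.3, scipy 1.17.1 and bedtools 2.31.1.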

Additional observations from a re-analysis of the deposited data

How the results depend on the processing

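The 45 repair genes were detected under each of DESeq2 size factors, library totals, a minimum of 0.5 CPM and either library alone, and 43 of them at a minimum of 5 CPM. Their median level of 7.82 FPKM was 14.6 FPKM with the longest transcript as the length, and lay between 8.06 and 8.57 FPKM when either library was left out. The median log2 ratio of 0.19 became 0.048 with library totals, where that of all genes went from 0.04 to −0.10. It lay between 0.17 and 0.21 under the other alternatives run. The 1 gene counted as higher in P42, Exo1, was lost (0 genes) with library totals, with the GC and length trend removed and with chromosome medians subtracted. The 0 genes counted as lower became 1, Slx4, with library totals and with chromosome medians subtracted. At 1.5-fold, 11 genes were higher (background 16.1%) and 3 lower (background 18.9%). The sign of the log2 ratio changed for 8 of 45 genes with library totals, 5 with the trend removed, 3 with chromosome medians subtracted, 1 with DESeq2 size factors and 0 with a prior count of 2. With 1 library for each age label, no fit left residual degrees of freedom. The intervals cover counting error only and were wide for genes of low count, such as Fancf with 115 and 116 counts (−0.21 to 0.56).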
